A study of Mus musculus with 15 samples.

Results

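The genes that encode the peroxisome proliferator-activated receptors (PPARs: Pparg, Ppara and Ppard), the retinoid X receptors (RXRs: Rxra, Rxrb and Rxrg) and the liver X receptors (LXRs: Nr1h2 for LXR beta and Nr1h3 for LXR alpha) were followed through adipogenic treatment of mouse embryonic fibroblasts (MEFs). The members were taken by name, 8 of the 46603 gene identifiers counted, and all 8 were among the 15997 genes tested. RNA was sequenced from cells of wild-type BALB/c embryos aged 10.5 days, in 5 conditions with 3 samples each, numbered 1, 3 and 4. The study's introduction describes MEFs in general as coming from another strain and from older embryos. MEFD0 were cells at day 0. MEFD3min and MEFD5min were untreated cells at days 3 and 5, grown in DMEM with 10% FBS. MEFD3plu were treated cells after 3 days in the same medium to which had been added IBMX (a phosphodiesterase inhibitor) at 0.5 mM, insulin at 10 μg/mL, the glucocorticoid dexamethasone at 1 μM and rosiglitazone, an agonist of the Pparg protein, at 10 μM. MEFD5plu were treated cells at day 5, after these 4 agents had been removed at day 3. Rosiglitazone was thus added and withdrawn together with the other 3 agents, and its own part cannot be told apart from theirs. Between MEFD3plu and MEFD5plu, day and withdrawal likewise cannot be told apart. Total counts per sample lay between 24030558 and 37281126. The study's methods speak of independent experiments in general, but the sources do not say whether the sequenced samples of a condition came from separate cultures or embryos, so p-values measure the spread between these samples, which may be technical.

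PPARs and LXRs are nuclear receptors that bind lipids, fatty acids and their derivatives for the PPARs and oxysterols for the LXRs, and switch genes on as heterodimers with an RXR. Pparg is needed for adipocyte differentiation, Ppara is best known for fatty acid oxidation in liver, Ppard is widely expressed, and LXRs control genes of cholesterol efflux and lipogenesis. RXRs bind retinoids and are shared by all these receptors, so that the RNA of a partner and of the RXRs bears on the same complex.

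The labelled cell type was checked against marker genes, in CPM, which are counts relative to library size after TMM scaling. All 8 fibroblast markers (such as Col1a1, Pdgfra and Vim) were above 3 counts in every sample. Their summed level was 10578, 12101 and 10953 CPM in MEFD0 replicates 1, 3 and 4, 21822, 33411 and 23780 CPM in MEFD3min, 11663, 12943 and 12369 CPM in MEFD3plu, 14378, 13230 and 12593 CPM in MEFD5min and 12110, 10792 and 11544 CPM in MEFD5plu, with Vim or Col3a1 the most abundant. At day 5 the fibroblast markers went both ways. Col3a1 averaged 2240 CPM in MEFD5min and 3554 in MEFD5plu, Pdgfra 282 and 340, and S100a4 17.8 and 33.8. Col1a1, Col1a2, Thy1, Vim and Fn1 averaged lower in MEFD5plu than in MEFD5min. Of the 6 adipocyte markers, 5 exceeded 3 counts in some sample, Fabp4 was the most abundant in each sample, and Lep stayed at or below 3 counts. The summed adipocyte level was 8.3, 11 and 12.4 CPM in MEFD0, 5.33, 8.25 and 6.73 CPM in MEFD3min, 3871, 3708 and 4887 CPM in MEFD3plu, 6.62, 6.81 and 7.54 CPM in MEFD5min and 6154, 7408 and 6976 CPM in MEFD5plu. The treated samples therefore carried fibroblast and adipocyte markers together. In bulk RNA, fewer cells of a type and less RNA per cell cannot be told apart.

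Markers of other cell types were low. Of 10 macrophage markers 3 exceeded 3 counts in a sample, Adgre1, C1qa and C1qb were at 0 in all samples, and the summed level ran from 1.76 to 6.73 CPM, led by Cd68 or, in MEFD5plu, Lyz2. Neural markers (3 of 6 above 3 counts, Sox10 at 0, led by Tubb3 or Elavl4) moved with treatment: they summed to 12.8, 11.2 and 12.6 CPM in MEFD0, 6.42, 7.05 and 9.05 CPM in MEFD3min, 0.409, 0.783 and 0.818 CPM in MEFD3plu, 12, 11.3 and 10.6 CPM in MEFD5min and 5.81, 5.25 and 5.07 CPM in MEFD5plu. Endothelial markers (5 of 6 above 3 counts, Tie1 at or below 3) summed to a mean of 1.19 CPM in MEFD0, 6.49 CPM in MEFD3min, 5.88 CPM in MEFD3plu, 14.7 CPM in MEFD5min and 14.1 CPM in MEFD5plu, mostly Emcn from day 3 on. Skeletal muscle markers (2 of 6, Myod1 and Myf5 at 0, led by Ttn or Des) summed to 0.96, 0.822 and 0.782 CPM in MEFD0, 0.721, 0.562 and 0.168 CPM in MEFD3min, 1.4, 1.1 and 1.69 CPM in MEFD3plu, 0.195, 0.506 and 0.649 CPM in MEFD5min and 2.41, 1.93 and 2.65 CPM in MEFD5plu, so that treated samples lay above untreated ones at both days. Epithelial markers (2 of 6, Krt5 at 0, led by Krt8, Cdh1 or Krt14) summed to 0.103, 0.053 and 0.112 CPM in MEFD0, 0.439, 0.281 and 0.168 CPM in MEFD3min, 0.0341, 0.0627 and 0.0846 CPM in MEFD3plu, 0.14, 0.117 and 0.0811 CPM in MEFD5min and 1.31, 0.451 and 0.513 CPM in MEFD5plu, with treated samples lower at day 3 and higher at day 5. Other genes share 26.93% of the 50-base stretches of Krt8, 15.39% of those of Lyz2 and 13.88% of those of Krt14. On the other strand, genes overlap 5.16% of the exon bases of Krt8, 5.86% of those of Des and 15.48% of those of Alas2. Erythroid markers (2 of 6, Hbb-bt and Hbb-y at 0, led by Alas2) had condition means of at most 0.604 CPM, and treated and untreated samples overlapped at both days. Whether any of these cell types, or the changes in fibroblast and adipocyte markers, had a part in the receptor levels was not tested.

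With the agents present at day 3, Pparg, Ppara, Rxra and Nr1h3 were higher in treated than in untreated cells, and the other 4 receptor genes were not called. Samples of the same number deviated together in this comparison, and with the number as a replicate block Ppard and Rxrb were called higher as well. The block also raised the number of all genes called, from 8967 to 9452 of 15997. Without the block 56.1% of all genes tested were called in this comparison, 28% higher and 28% lower (edgeR quasi-likelihood test, Benjamini-Hochberg adjusted p under 0.05). The 4 of 8 are thus close to that background. At day 5, after withdrawal, Pparg, Ppara, Rxra, Rxrg and Nr1h3 were higher and the other 3 were not called, where 50.5% of all genes were called, 26.3% higher and 24.2% lower. Ppara and Rxrg passed the filter on low counts (0.295 CPM or more in at least 3 samples) through the 6 treated samples alone, where they are high, so their calls add no support to these counts. Of the 6 receptor genes that passed it in treated and also in untreated samples, 3 were higher and 3 not called at each day, where 57.3% of all genes that did so were called at day 3 and 51.9% at day 5. The median log2 fold change of these 6 was 0.94 at day 3 and 0.15 at day 5, beside 0.00 and 0.01 for all genes that did so. The difference between treated and untreated cells itself differed between the days for Ppard and Rxra, which had the higher log2 fold change at day 3, and for Pparg and Nr1h3, which had the higher one at day 5. For all genes 48.5% passed this interaction test, 22.6% higher at day 3 and 25.8% lower, and the medians over genes that passed the filter in both kinds of sample were 0.14 for the 6 receptors and -0.02 for all genes. The comparisons at days 3 and 5 share no samples, but each shares its samples with the interaction.

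**Figure D1:**
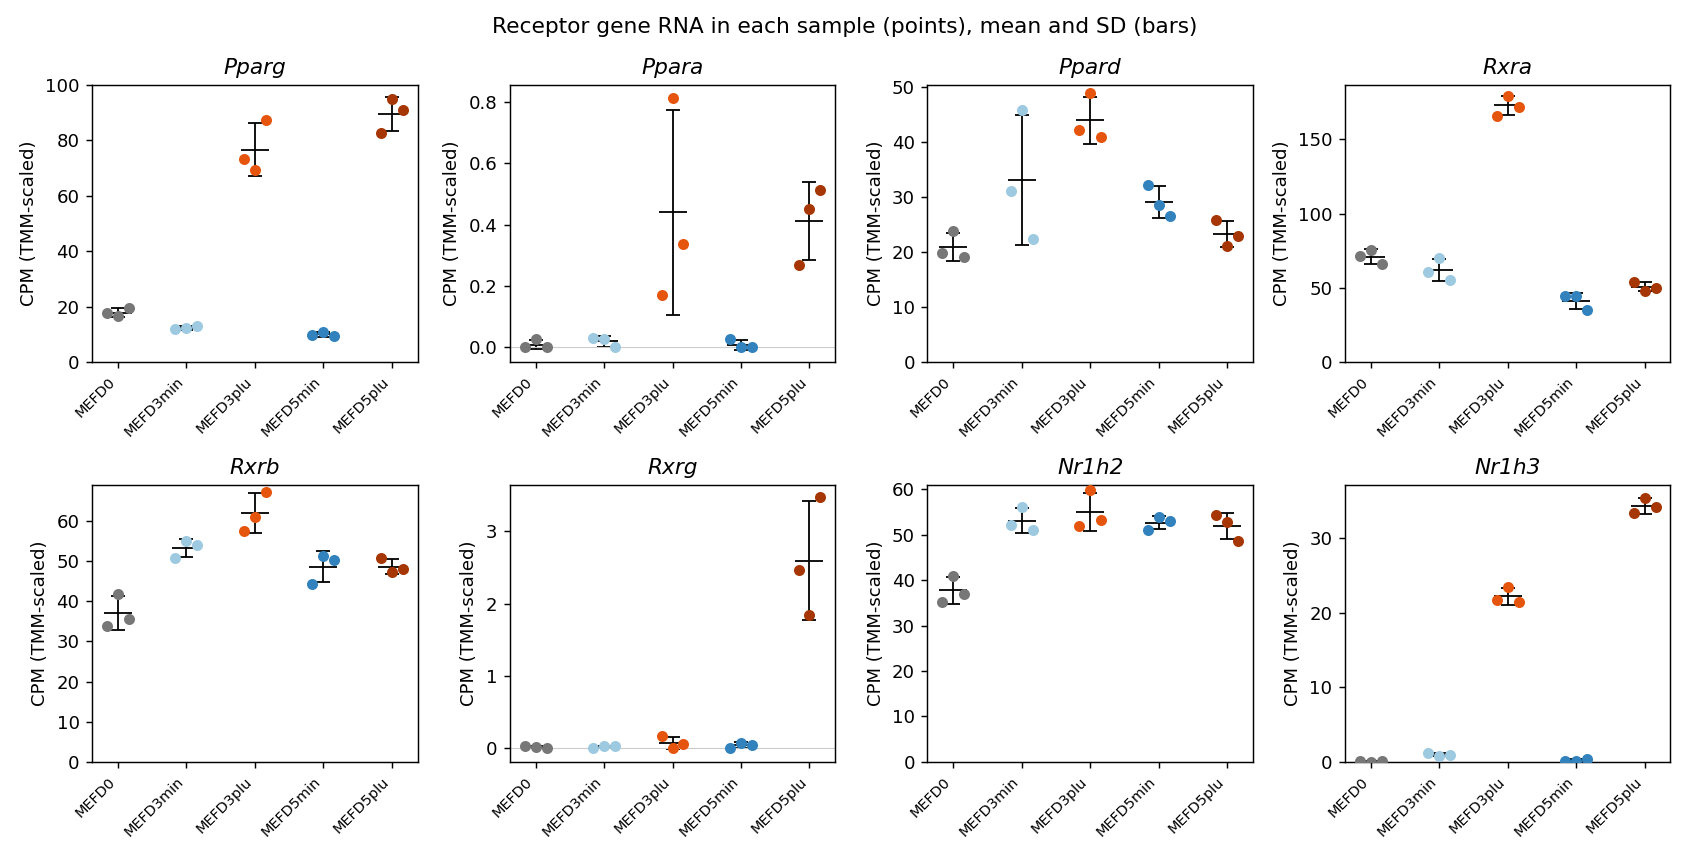
TMM-scaled CPM (vertical axis, linear and separate for each gene) of the 8 receptor genes in the 5 conditions, with 1 point per sample and bars for the mean and SD of 3 samples. Pparg and Nr1h3 were high in both treated conditions, Rxra was highest in MEFD3plu, and Rxrg stood out in MEFD5plu (mean 2.59 CPM).

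Pparg, the PPAR of adipocytes (ENSMUSG00000000440, chr6:115360951-115490399, plus strand, GRCm38), measured 17.9, 16.5 and 19.4 CPM in MEFD0 replicates 1, 3 and 4, 11.9, 12.2 and 13.2 CPM in MEFD3min, 73.2, 69.3 and 87.4 CPM in MEFD3plu, 9.64, 10.9 and 9.52 CPM in MEFD5min and 82.7, 94.9 and 91 CPM in MEFD5plu. All 6 treated samples lay above all 9 others, and the conditions overlapped only between MEFD5plu and MEFD3plu. Levels ran in the order MEFD5plu, MEFD3plu, MEFD0, MEFD3min and MEFD5min. Treated cells held 6.16 times the untreated level at day 3, a log2 fold change of 2.62 (SE 0.105, edgeR quasi-likelihood test, Benjamini-Hochberg adjusted p = 1.69e-12). After withdrawal the ratio was 8.96 (log2 fold change 3.16, SE 0.108, edgeR quasi-likelihood test, Benjamini-Hochberg adjusted p = 3.37e-13). The day 3 effect was smaller than the day 5 effect by the interaction (log2 difference -0.54, 95% interval -0.84 to -0.24, edgeR quasi-likelihood test, Benjamini-Hochberg adjusted p = 0.005). From MEFD3plu to MEFD5plu, with the agents gone, the log2 fold change was 0.22 (SE 0.096, edgeR quasi-likelihood test, Benjamini-Hochberg adjusted p = 0.0516). In some alternative fits that value passed the threshold, as without replicate 3 or 4 of MEFD3min (adjusted p = 0.046 and 0.0421 by the same edgeR test), replicate 4 of MEFD3plu (0.0079), replicate 3 of MEFD5min (0.0479) or replicate 1 of MEFD5plu (0.0338), and where every sample had to have at least 10 counts (0.0358). In untreated culture Pparg fell by 0.53 on the log2 scale from day 0 to day 3 (SE 0.104, edgeR quasi-likelihood test, Benjamini-Hochberg adjusted p = 0.000305). It fell by a further 0.32 from day 3 to day 5 (SE 0.107, edgeR quasi-likelihood test, Benjamini-Hochberg adjusted p = 0.0241), a call lost without replicate 4 of MEFD3min (edgeR adjusted p = 0.0672) and replicates 1 (0.0807) or 4 (0.0845) of MEFD5min, with scaling by total counts (0.0988) and with only the samples compared (0.0942). Gene counts do not separate the transcripts of the shorter and the longer Pparg protein.

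Ppard (ENSMUSG00000002250, chr17:28232700-28301474, plus strand), the broadly expressed PPAR, measured 19.9, 23.8 and 19.1 CPM in MEFD0, 31.1, 45.8 and 22.4 CPM in MEFD3min, 42.2, 48.9 and 40.9 CPM in MEFD3plu, 32.2, 28.5 and 26.5 CPM in MEFD5min and 25.8, 21.1 and 22.9 CPM in MEFD5plu. MEFD3min was spread widely, from below every MEFD5min sample to within the MEFD3plu range. In order of level MEFD3plu, MEFD3min and MEFD5min overlapped with their neighbours, and MEFD5plu and MEFD0 lay below MEFD5min and overlapped with each other. Neither treated against untreated comparison was called, with log2 fold changes of 0.41 at day 3 (95% interval 0.03 to 0.79, edgeR quasi-likelihood test, Benjamini-Hochberg adjusted p = 0.065) and -0.32 at day 5 (-0.71 to 0.07, adjusted p = 0.159). With the replicate block the day 3 value was called (0.43, edgeR adjusted p = 0.0168). Without replicate 3 of MEFD3min both passed, with edgeR adjusted p-values of 0.000334 (log2 fold change 0.71) and 0.0412, both were also called with no filter on low counts, and the day 5 value with only the samples compared (edgeR adjusted p = 0.0185). The effects differed between the days by 0.73 (95% interval 0.18 to 1.27, edgeR quasi-likelihood test, Benjamini-Hochberg adjusted p = 0.0273). This last call was lost without replicate 1 of MEFD3min (edgeR adjusted p = 0.0601), replicate 3 of MEFD3plu (0.0687), replicate 1 of MEFD5min (0.0677), and replicates 3 (0.0663) or 4 (0.0524) of MEFD5plu. Ppard rose from MEFD0 to MEFD3min (log2 fold change 0.66, SE 0.183, edgeR quasi-likelihood test, Benjamini-Hochberg adjusted p = 0.0048) and fell by 0.92 from MEFD3plu to MEFD5plu (SE 0.183, edgeR quasi-likelihood test, Benjamini-Hochberg adjusted p = 0.000331). From MEFD3min to MEFD5min the change was -0.19 (edgeR adjusted p = 0.419), called without replicate 4 of MEFD3min (-0.41, 0.0311) and above 0 without replicate 3 of MEFD3min (0.12).

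Ppara (ENSMUSG00000022383, chr15:85734983-85802819, plus strand), the PPAR known from liver, was near the limit of detection. It had 0, 1 and 0 counts in MEFD0, 1, 1 and 0 in MEFD3min, 5, 26 and 12 in MEFD3plu, 1, 0 and 0 in MEFD5min and 9, 14 and 17 in MEFD5plu. Every treated sample exceeded every other sample, while all untreated conditions were at the floor of 3 counts. The summed counts, 43 against 2, gave a ratio of 21.6 at day 3 (95% exact counting interval 5.63 to 184). At day 5 they were 40 against 1, a ratio of 40.3 (6.83 to 1631). Such intervals and floors cover counting error only. Both comparisons were called (edgeR quasi-likelihood test, Benjamini-Hochberg adjusted p = 0.000462 and 0.000427), but Ppara entered the tests through the treated samples alone and was not tested with only the samples compared, at either day. The fitted log2 fold change of 4.20 at day 3 was 3.43 without replicate 3 of MEFD3plu, and that of 4.89 at day 5 was 6.76 without replicate 1 of MEFD5min. Between MEFD3plu and MEFD5plu the ratio was 0.92 (0.583 to 1.45), and this difference was not called. Its fitted log2 fold change of -0.11 changed sign without replicate 3 of MEFD3plu (0.66) and without replicate 1 of MEFD5plu (0.12).

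Rxra (ENSMUSG00000015846, chr2:27676440-27762957, plus strand) encodes RXR alpha, a partner of PPARs and LXRs. It measured 71.5, 75.7 and 66 CPM in MEFD0, 60.5, 70.3 and 55.3 CPM in MEFD3min, 166, 179 and 172 CPM in MEFD3plu, 44.2, 44.5 and 35.3 CPM in MEFD5min and 54.1, 47.9 and 50.2 CPM in MEFD5plu. The 3 MEFD3plu samples stood above all others, and MEFD5plu lay below MEFD0 and MEFD3min. MEFD0 and MEFD3min overlapped, and MEFD5min was lowest. Treated cells had 2.78 times the untreated level at day 3 (log2 fold change 1.48, SE 0.103, edgeR quasi-likelihood test, Benjamini-Hochberg adjusted p = 1.96e-09). After withdrawal it was 1.23 times (log2 fold change 0.30, SE 0.103, edgeR quasi-likelihood test, Benjamini-Hochberg adjusted p = 0.0236). The small day 5 difference was not called without replicate 4 of MEFD5min (log2 fold change 0.15, edgeR adjusted p = 0.239), replicate 1 of MEFD5plu (0.25, 0.0919) or replicate 4 of MEFD5plu (0.30, 0.0514). It was also lost in DESeq2 (0.25, adjusted p = 0.0553), with DESeq2's size factors in edgeR (0.25, 0.0509) and with total counts alone (0.13, 0.35). The effects differed by 1.18 between the days (95% interval 0.87 to 1.48, edgeR quasi-likelihood test, Benjamini-Hochberg adjusted p = 4.81e-06). Within treated cells Rxra fell by 1.76 on the log2 scale from day 3 to day 5, to a level 3.4 times lower (SE 0.104, edgeR quasi-likelihood test, Benjamini-Hochberg adjusted p = 3.56e-10). In untreated cells it fell by 0.59 over the same days (SE 0.103, edgeR quasi-likelihood test, Benjamini-Hochberg adjusted p = 0.000196). From MEFD0 to MEFD3min the log2 fold change was -0.20 (edgeR adjusted p = 0.109), and it passed without replicate 3 of MEFD3min (-0.30, 0.0178), without replicate 4 of MEFD5min (-0.22, 0.0409) and with total counts alone (-0.32).

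Rxrb (ENSMUSG00000039656, chr17:34031812-34038399, plus strand), for RXR beta, measured 33.8, 41.8 and 35.5 CPM in MEFD0, 50.8, 54.9 and 54.1 CPM in MEFD3min, 57.5, 61.1 and 67.3 CPM in MEFD3plu, 44.2, 51.3 and 50.2 CPM in MEFD5min and 50.7, 47.2 and 48 CPM in MEFD5plu. MEFD0 was lowest and MEFD3plu highest, while the treated and untreated samples of day 5 overlapped. The log2 fold change was 0.22 at day 3 (95% interval 0.03 to 0.41, edgeR quasi-likelihood test, Benjamini-Hochberg adjusted p = 0.0511) and 0.00 at day 5 (-0.19 to 0.20, adjusted p = 0.987). The day 3 value was called without replicates 1 (edgeR adjusted p = 0.0499) or 3 (0.0368) of MEFD0, replicate 1 of MEFD3plu (0.0365) or replicate 1 of MEFD5min (0.0495), with total counts alone (log2 fold change 0.24) or at least 10 counts in every sample (0.21), and with the replicate block (0.22, edgeR adjusted p = 0.0318). The day 5 value had no stable sign, at -0.16 with total counts alone, -0.04 under the scaling of DESeq2, -0.06 and -0.01 without replicates 1 and 4 of MEFD5min and -0.03 without replicate 1 of MEFD5plu. Rxrb rose from MEFD0 to MEFD3min (log2 fold change 0.52, SE 0.0921, edgeR quasi-likelihood test, Benjamini-Hochberg adjusted p = 0.000102). In treated cells it fell by 0.35 from day 3 to day 5 (SE 0.0914, edgeR quasi-likelihood test, Benjamini-Hochberg adjusted p = 0.00308).

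Rxrg (ENSMUSG00000015843, chr1:167598384-167639623, plus strand), for RXR gamma, was counted 1, 1 and 0 times in MEFD0, 0, 1 and 1 times in MEFD3min, 5, 0 and 2 times in MEFD3plu and 0, 2 and 2 times in MEFD5min. In MEFD5plu it had 83, 57 and 115 counts. These 3 samples were the only ones with more than 5 counts. Over untreated cells of the same day the counts were 255 against 4, a ratio of 64.2 (95% exact counting interval 24.8 to 237, edgeR quasi-likelihood test, Benjamini-Hochberg adjusted p = 2.18e-06). Over MEFD3plu, with 7 counts, the ratio was 36 (17.2 to 90.5, edgeR quasi-likelihood test, Benjamini-Hochberg adjusted p = 2.5e-06). The fitted log2 fold changes, 5.86 and 5.08, were 5.26 without replicate 1 of MEFD5min and 6.28 without replicate 1 of MEFD3plu. At day 3 the ratio of 7 to 2 counts, 3.52, had an interval from 0.67 to 34.7 and was not called (edgeR quasi-likelihood test, Benjamini-Hochberg adjusted p = 0.243). Rxrg entered the tests through MEFD5plu alone, and at day 3 it was not tested with only the samples compared. The interaction was not called either (log2 difference -4.20, edgeR quasi-likelihood test, Benjamini-Hochberg adjusted p = 0.0862), although DESeq2 (-4.11, 0.0188) and the fit without replicate 1 of MEFD3plu (-5.40, 0.038) called it.

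Nr1h3 (ENSMUSG00000002108, chr2:91184061-91202834, minus strand) encodes LXR alpha, the LXR of liver, adipose tissue and macrophages. It measured 0.0686, 0.0265 and 0.112 CPM in MEFD0, 1.13, 0.73 and 0.908 CPM in MEFD3min, 21.7, 23.5 and 21.5 CPM in MEFD3plu, 0.0838, 0.156 and 0.378 CPM in MEFD5min and 33.4, 35.4 and 34.2 CPM in MEFD5plu. MEFD5plu was highest, then MEFD3plu and MEFD3min, each with no overlap with the next, and MEFD5min and MEFD0 overlapped at the bottom. The treated level was 24.1 times the untreated one at day 3 (log2 fold change 4.59, SE 0.195, edgeR quasi-likelihood test, Benjamini-Hochberg adjusted p = 3.25e-12). At day 5 it was 159 times (log2 fold change 7.31, SE 0.241, edgeR quasi-likelihood test, Benjamini-Hochberg adjusted p = 2.2e-13). The effect was smaller at day 3, where the untreated level was higher (interaction -2.72, 95% interval -3.52 to -1.95, edgeR quasi-likelihood test, Benjamini-Hochberg adjusted p = 1.38e-05). Without replicate 4 of MEFD5min the day 5 log2 fold change was 8.14 and the interaction -3.55. Within treated cells Nr1h3 rose by a factor of 1.54 from day 3 to day 5 (log2 fold change 0.63, SE 0.144, edgeR quasi-likelihood test, Benjamini-Hochberg adjusted p = 0.00113). In untreated cells it rose from 7 to 89 summed counts between MEFD0 and MEFD3min, a ratio of 13.4 (95% exact counting interval 6.25 to 34.4, edgeR quasi-likelihood test, Benjamini-Hochberg adjusted p = 1.08e-06). It then fell by 2.09 on the log2 scale to MEFD5min (edgeR quasi-likelihood test, Benjamini-Hochberg adjusted p = 9.78e-05), or -2.96 without replicate 4 of MEFD5min. An adjacent gene model, Gm13783, overlaps 1.35% of the exon bases of Nr1h3 on the same strand. The other 7 receptor genes overlap no annotated gene in their exons. The macrophage markers, here nearly all Cd68 and Lyz2, summed to 4.09 to 4.3 CPM in MEFD3plu and 4.03 to 5.1 CPM in MEFD5plu. In untreated cells they summed to 5.64 to 6.15 CPM in MEFD3min and 5.45 to 6.73 CPM in MEFD5min. Whether macrophages were present or had a part in the Nr1h3 level was not tested.

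Nr1h2 (ENSMUSG00000060601, chr7:44549616-44553951, minus strand), for the ubiquitous LXR beta, measured 35.3, 41 and 37 CPM in MEFD0, 52.1, 56.2 and 51 CPM in MEFD3min, 51.9, 59.8 and 53.2 CPM in MEFD3plu, 51.1, 53.9 and 53 CPM in MEFD5min and 54.3, 52.8 and 48.7 CPM in MEFD5plu. The 4 later conditions overlapped with each other and lay above MEFD0. The rise from MEFD0 to MEFD3min was 0.49 on the log2 scale (SE 0.0824, edgeR quasi-likelihood test, Benjamini-Hochberg adjusted p = 6.36e-05). Treated and untreated cells differed by 0.05 at day 3 (95% interval -0.12 to 0.22, edgeR quasi-likelihood test, Benjamini-Hochberg adjusted p = 0.639) and by -0.02 at day 5 (-0.19 to 0.15, adjusted p = 0.86). The signs turned without replicate 3 of MEFD3plu (-0.02) and without replicate 4 of MEFD5plu (0.02).

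**Figure D2:**
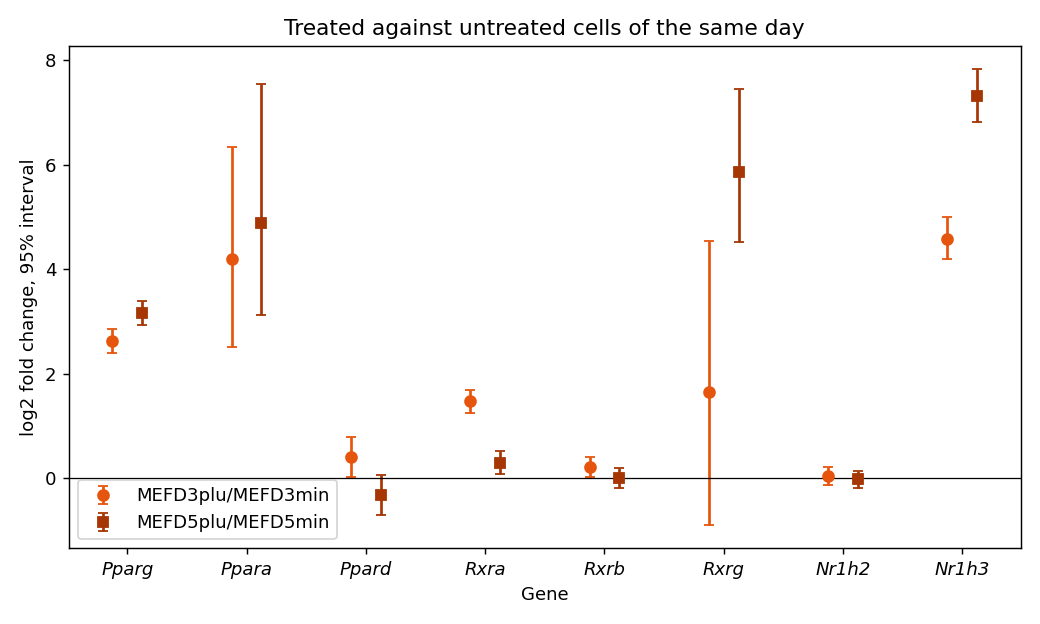
Log2 fold change of treated over untreated cells (vertical axis) for each receptor gene (horizontal axis), circles for MEFD3plu/MEFD3min and squares for MEFD5plu/MEFD5min, with 95% intervals from the edgeR fit of 15 samples. Nr1h3 had the largest fitted changes of the 8 genes at both days (4.59 and 7.31), but its intervals overlapped those of Ppara and Rxrg, which had few counts. Rxra moved from 1.48 to 0.30, and the intervals of Nr1h2 included 0.

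Over time in culture, 5 of the 8 receptor genes were called between MEFD0 and MEFD3min, 4 higher and 1 lower, where 60% of all genes were called (31.4% higher and 28.6% lower). The medians, here over genes that passed the filter in treated and in untreated samples, were 0.51 for 6 receptor genes and 0.03 for all genes. From MEFD3min to MEFD5min 3 receptor genes fell (Pparg, Rxra and Nr1h3) and 5 were not called, beside 42.8% of all genes (21.3% higher and 21.5% lower), with medians of -0.25 and -0.03. From MEFD3plu to MEFD5plu, Rxrg and Nr1h3 rose, Ppard, Rxra and Rxrb fell, and 3 were not called, beside 63% of all genes (33.8% higher and 29.2% lower), with medians of -0.22 and 0.05. Rxrg is not among those 6. MEFD3plu and MEFD3min serve in several of these comparisons, which are therefore not independent. Scaling mattered for small changes: with total counts alone in place of TMM, the median of all genes moved by -0.16 for MEFD5plu/MEFD5min, by -0.12 for MEFD3min/MEFD0, by 0.10 for MEFD5min/MEFD3min and by 0.18 for the interaction. The share of called genes that were higher then went from 52.1% to 37% for MEFD5plu/MEFD5min, from 49.7% to 62.7% for MEFD5min/MEFD3min and from 46.7% to 59.5% for the interaction. It went from 52.3% to 43.9% for MEFD3min/MEFD0, from 53.6% to 49.1% for MEFD5plu/MEFD3plu and from 50% to 51% for MEFD3plu/MEFD3min. With DESeq2's size factors in edgeR it was 47.5% for MEFD5plu/MEFD5min.

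To compare levels between genes, CPM were divided by the kilobases of annotated exon. The shares depend on this choice of length, as annotated exons cover 7514 bases for Ppard and 2953 for Pparg, while the longest transcripts have 3726 and 2125. In plain CPM, Ppard averaged more than Pparg in MEFD0 (20.9 against 17.9), MEFD3min (33.1 against 12.4) and MEFD5min (29.1 against 10). Among the PPARs, Pparg made up 68.5% ± 4.32 (SD, n = 3) of the summed CPM per kb in MEFD0, 49.9% ± 9.79 in MEFD3min, 81.1% ± 3.27 in MEFD3plu, 46.8% ± 3.19 of it in MEFD5min and 90.4% ± 1.39 in MEFD5plu. Ppard made up nearly all of the rest, and Ppara had a mean share of at most 0.367% in any condition. The Pparg share was thus higher in treated cells by 31.3 percentage points at day 3 and by 43.6 at day 5, with no overlap between samples (exact two-sided permutation tests, p = 0.1 each). This is the smallest p that 3 samples against 3 allow, and the 6 tests of shares are given unadjusted.

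Among the RXRs, Rxra and Rxrb shared the RNA in changing proportion. Rxra made up 58.3% ± 2 (SD, n = 3) in MEFD0, 45.7% ± 2.88 in MEFD3min, 66.9% ± 1.65 in MEFD3plu, 38.2% ± 4.18 of it in MEFD5min and 41% ± 0.685 in MEFD5plu. The treated share was 21.2 percentage points higher at day 3 (exact two-sided permutation test, p = 0.1) and 2.82 points higher at day 5 (exact test, p = 0.4), where the samples overlapped. Rxrb was the most abundant RXR per kb in MEFD3min (54.2% ± 2.87), MEFD5min (61.7% ± 4.13) and MEFD5plu (54% ± 1.22). In plain CPM, however, Rxra averaged more than Rxrb in MEFD3min (62 against 53.3) and MEFD5plu (50.8 against 48.6). Rxrg reached 4.96% ± 1.5 in MEFD5plu, and its mean share was at most 0.0946% in the other conditions.

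The LXR pair changed from nearly pure Nr1h2 to a mix of both genes. Nr1h3 made up 0.248% ± 0.157 (SD, n = 3) in MEFD0, 2.27% ± 0.553 in MEFD3min, 35.1% ± 0.69 in MEFD3plu, 0.515% ± 0.379 of it in MEFD5min and 46.9% ± 1.69 in MEFD5plu. The treated share was higher by 32.8 percentage points at day 3 and by 46.4 at day 5 (exact two-sided permutation tests, p = 0.1 each). Without division by length, Nr1h3 averaged 34.3 CPM in MEFD5plu, beside 51.9 for Nr1h2. Per kb, Nr1h3 held 13.7 CPM in MEFD5plu, beside 15.5 for Nr1h2, 30.3 for Pparg, 12.2 for Rxrb, 9.3 for Rxra and 3.1 for Ppard. In MEFD3plu the levels per kb were 31.6 for Rxra, 26 for Pparg, 16.4 for Nr1h2, 15.6 for Rxrb, 8.84 for Nr1h3 and 5.86 for Ppard.

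**Figure D3:**
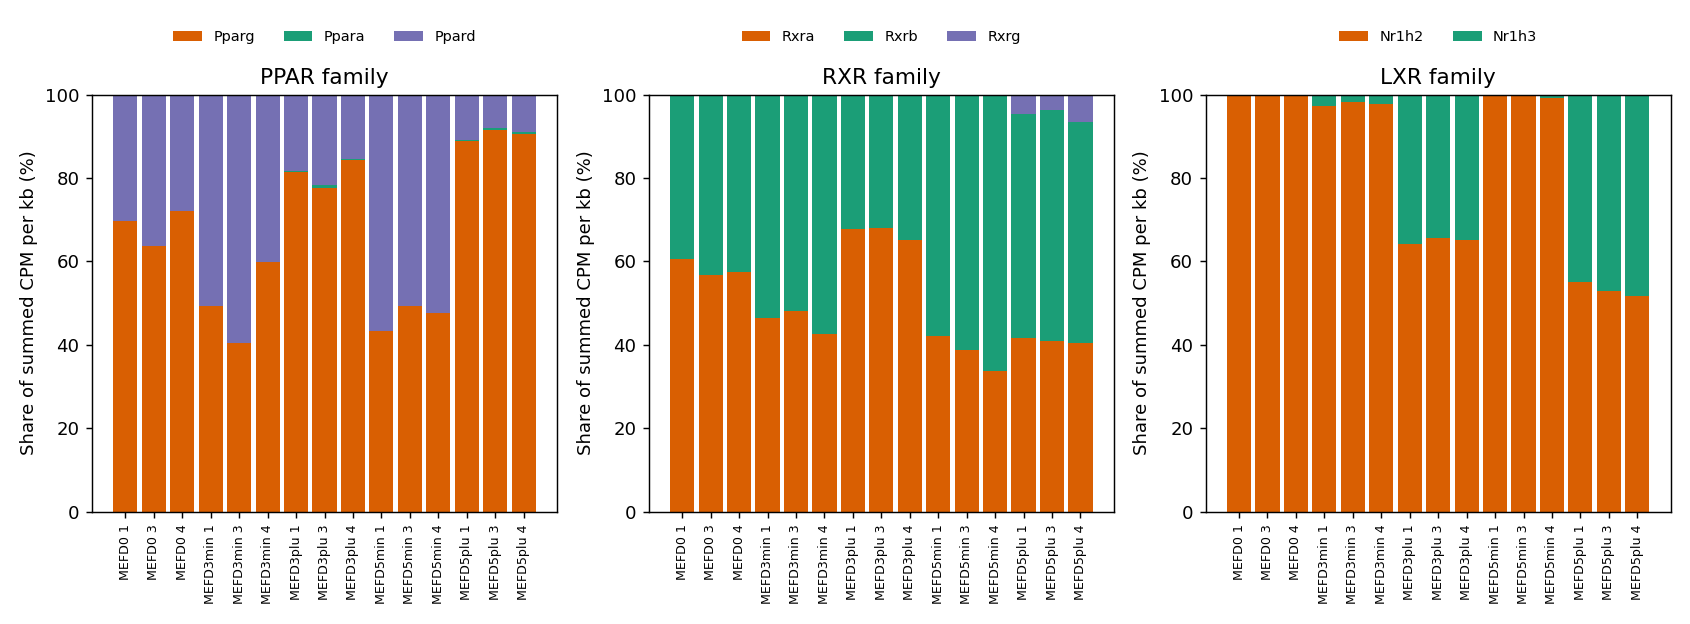
Share of each gene (vertical axis, percent) in the summed CPM per kb of its receptor family, with 1 stacked bar per sample. Pparg, Rxra and Nr1h3 took larger shares in MEFD3plu than in MEFD3min, and in MEFD5plu the Rxra share (41%) was close to that of MEFD5min (38.2%).

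Genes known as targets of PPARs in adipocytes changed with treatment. Each day is given on its own for the lists, with no comparison of the effects between days, and counts are to be read beside the shares of all genes, 28% higher and 28% lower at day 3, 26.3% and 24.2% at day 5 and 33.8% and 29.2% from MEFD3plu to MEFD5plu. Of 17 such genes, all tested, 16 rose at day 3 and 16 at day 5. However, 6 of them, such as Adipoq, Plin1 and Pck1 (the last at 0 counts in all untreated samples and named for that), passed the filter on low counts through treated samples alone, so that they had to be higher. Of the other 11, 10 rose at each day, where 28.3% of all genes that passed in both kinds of sample rose at day 3 and 26.5% at day 5. The exception, Slc27a1, a fatty acid transport protein named after its values were seen, was not called at either day. It was called lower at day 3 without replicate 3 of MEFD3plu and with the replicate block, and at day 5 without replicate 4 of MEFD5min and with total counts alone, which made the count of lower genes 1. The median log2 fold change of those 11 was 5.67 at day 3 and 4.40 at day 5, beside 0.00 and 0.01 for all such genes. Medians of the lists are given in this way, without genes that passed on 1 side alone. Fabp4, a fatty acid carrier, averaged 6.12 ± 0.803 CPM (SD, n = 3) in MEFD3min and 3059 ± 538 in MEFD3plu, and 6.91 ± 0.466 in MEFD5min and 4522 ± 450 in MEFD5plu (log2 fold changes 8.96 and 9.35, edgeR quasi-likelihood test, Benjamini-Hochberg adjusted p = 1.47e-15 and 2.41e-15). Lpl, the lipase that frees fatty acids from lipoproteins, rose by 6.85 and 7.36, Acsl1, an acyl-CoA synthetase, by 7.02 and 6.08, and the lipid droplet gene Plin2 by 2.25 and 2.97. Cd36, a fatty acid transporter, rose by 11.40 at day 3 (12.73 without replicate 3 of MEFD3min) and 11.73 at day 5. Adiponectin (Adipoq) had 83379 summed counts in MEFD5plu and 2 in MEFD5min (fitted log2 fold change 15.12, or 17.73 without replicate 4 of MEFD5min). The lipid droplet gene Plin1 had 16238 in MEFD3plu and 2 in MEFD3min (12.75, or 15.42 without replicate 3 of MEFD3min). From MEFD3plu to MEFD5plu 8 of these genes rose and 6 fell, and DESeq2 called 4 higher. Of the 11 genes, 3 rose and 5 fell (median -0.30, beside 0.05 for all such genes). With at least 10 counts required in every sample, fewer genes were tested, and 9 rose at each day and 3 from MEFD3plu to MEFD5plu.

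Of 19 targets in fatty acid oxidation 14 were tested (Cpt1b, Cyp4a10, Cyp4a14 and Vnn1 were among those that were not), and 13 rose and 1 fell at each day. Ucp3 passed the filter through treated samples alone, and of the other 13 genes 12 rose and 1 fell at each day, with medians of 1.44 at day 3 and 2.56 at day 5. Pdk4, a kinase that spares glucose, averaged 0.262 ± 0.0896 CPM (SD, n = 3) in MEFD3min and 23.2 ± 1.37 in MEFD3plu, and 0.934 ± 0.397 in MEFD5min and 25.7 ± 1.49 in MEFD5plu. Its log2 fold changes were 6.42 and 4.82 (edgeR quasi-likelihood test, Benjamini-Hochberg adjusted p = 1.13e-12 and 8.35e-12). The acyl-CoA dehydrogenases Acadm (2.48 and 3.01) and Acadl (1.91 and 1.57), the trifunctional protein gene Hadha (1.15 and 1.75) and Cpt1a, the carnitine palmitoyltransferase of liver (0.57 and 0.80), rose as well. Ucp3, a mitochondrial carrier, had 246 counts in MEFD5plu against 1 in MEFD5min, a ratio of 248 (95% exact counting interval 44.1 to 9826). Its fitted log2 fold change of 7.50 was 9.32 without replicate 4 of MEFD5min. The gene that fell was Acot1, a thioesterase (-1.13 and -1.02). Of its 50-base stretches 19.17% also occur in other genes, and its call was lost without replicate 3 of MEFD3min at day 3 (edgeR adjusted p = 0.0514) and without replicate 3 of MEFD5plu (0.0851) or with no filter on low counts (0.0898) at day 5.

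LXR targets were mixed. Of 16 genes 13 were tested (Abcg5, Abcg8 and Cyp7a1 were not). At day 3, 9 rose and 3 fell, and at day 5, 9 rose and 1 fell. Abcg1, Mlxipl and Apoc1, the last named after its values were seen, passed the filter through treated samples alone. Of the other 10 genes, 6 rose and 3 fell at day 3 (median 1.02), and 6 rose and 1 fell at day 5 (median 0.54). Abca1, the cholesterol efflux pump, averaged 32.5 ± 5.94 CPM (SD, n = 3) in MEFD3min, 223 ± 10.4 in MEFD3plu, 37 ± 5.76 CPM in MEFD5min and 75.4 ± 4.37 in MEFD5plu, with log2 fold changes of 2.78 and 1.03 (edgeR quasi-likelihood test, Benjamini-Hochberg adjusted p = 9.04e-11 and 2.06e-05). Its partner Abcg1 was scarce, at 18 counts in MEFD3plu against 1 in MEFD3min (ratio 18.1, 95% exact counting interval 2.86 to 754) and 155 in MEFD5plu against 3 in MEFD5min (52, 17.5 to 255). The fitted log2 fold change of 3.73 at day 3 was 5.61 without replicate 3 of MEFD3min and 2.86 without replicate 4 of MEFD3plu, and that of 5.54 at day 5 was 6.33 without replicate 1 of MEFD5min. The lipogenic regulator Srebf1 rose by 1.07 at day 3 and was not called at day 5 (0.32, edgeR quasi-likelihood test, Benjamini-Hochberg adjusted p = 0.0519). The same fold was called at day 5 with only the samples compared (edgeR adjusted p = 0.00446), with no filter (0.0104), with at least 10 counts in every sample (0.0483), and without replicate 4 of MEFD0 (0.0494) or replicates 3 (0.00645) or 4 (0.0281) of MEFD3min. Scd1, a desaturase (4.56% of 50-base stretches also in other genes), rose by 2.30 and 4.24, and Lpcat3, a phospholipid acyltransferase of which 10.22% of exon bases overlap Emg1 on the other strand, by 1.43 and 1.31. Fasn, the fatty acid synthase, rose by 0.98 at day 3 and had 311 ± 55.4 CPM in MEFD5min and 312 ± 46.7 in MEFD5plu (0.00, with a sign that changed with scaling and without single samples). Mlxipl, a glucose-sensing factor, was at 0 in untreated cells. Against a floor of 3 counts over the group, it was at least 3.35-fold higher in MEFD3plu (10 counts) and at least 43.6-fold higher in MEFD5plu (130 counts). Mylip, a ubiquitin ligase for the LDL receptor, measured 31.3 ± 5.42 CPM in MEFD3min and 32.1 ± 4.61 in MEFD3plu. At day 5 it measured 19.7 ± 1.84 CPM in MEFD5min and 26.4 ± 3.21 in MEFD5plu and was called higher (0.42, edgeR quasi-likelihood test, Benjamini-Hochberg adjusted p = 0.0425). That call was lost in DESeq2 (adjusted p = 0.0706), in edgeR with scaling by DESeq2's size factors (0.0644) or by total counts (0.245), and without replicate 4 of MEFD0 (0.0508), replicate 3 of MEFD3plu (0.0518), replicates 3 (0.139) or 4 (0.115) of MEFD5min or replicates 3 (0.117) or 4 (0.137) of MEFD5plu. Arl4c, a small GTPase, fell by 2.41 and by 1.56. Smpdl3a fell by 4.04 at day 3 (-4.72 without replicate 3 of MEFD3plu) and had 2.53 ± 1.13 CPM in MEFD5min and 2.59 ± 0.614 in MEFD5plu. From MEFD3plu to MEFD5plu 7 LXR targets rose and 5 fell, with 3 rising where every sample had to have at least 10 counts. Of the 10 genes that passed the filter in treated and in untreated samples 4 rose and 5 fell (median -0.43).

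Nuclear receptors recruit coactivators to turn genes on and corepressors to turn them off. Of 11 coactivators 3 rose and 1 fell at day 3 (median 0.23; 5 rose without replicate 3 of MEFD3min), and 2 rose and 6 fell at day 5 (median -0.47). Over all genes 56.1% were called at day 3 and 50.5% at day 5, with medians of 0.00 and 0.01. With the replicate block the coactivator Ep300 was also called higher at day 3 (log2 fold change 0.45, edgeR adjusted p = 0.00649). From MEFD3plu to MEFD5plu all 11 fell, with a median of -0.96, where 29.2% of all genes fell and the median was 0.06. Ppargc1a, the coactivator of mitochondrial genes, averaged 0.712 ± 0.313 CPM (SD, n = 3) in MEFD3min, 9.41 ± 0.853 in MEFD3plu, 0.692 ± 0.189 CPM in MEFD5min and 4.83 ± 0.186 in MEFD5plu (log2 fold changes 3.69 and 2.81, edgeR quasi-likelihood test, Benjamini-Hochberg adjusted p = 9.22e-10 and 9.72e-08). Its relative Pprc1 measured 0.12 at day 3 (edgeR adjusted p = 0.611, and -0.12 without replicate 4 of MEFD3min) and fell by 1.21 at day 5, and Ncoa3 fell by 0.56 at day 3 and by 0.84 at day 5. Med1, the Mediator subunit that binds nuclear receptors, rose by 0.43 at day 3. At day 5 it was -0.22 and not called (edgeR adjusted p = 0.0707), but called lower in DESeq2 (-0.27, adjusted p = 0.0281), in edgeR with scaling by DESeq2's size factors (-0.27) or by total counts (-0.39), with only the samples compared (edgeR adjusted p = 0.0189), and without replicates 3 (0.0359) or 4 (0.0406) of MEFD3min or replicate 4 of MEFD5min (0.0372). Ncoa2 measured 94.4 ± 22.5 CPM in MEFD3min and 94.3 ± 11.1 in MEFD3plu. At day 5 it was -0.31 and not called (edgeR adjusted p = 0.0955), but called lower with only the samples compared (0.0217), total counts alone (0.0249) or no filter (0.0147), and without replicate 3 of MEFD3min (0.033) or replicate 4 of MEFD5min (0.0306).

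Of 8 corepressors 4 rose and 1 fell at day 3 (median 0.12). At day 5, 1 fell and 7 were not called (median -0.06). The lower count was 0 without replicates 1 or 3 of MEFD5min or replicates 3 or 4 of MEFD5plu. With total counts alone 5 corepressors were lower, and 2 with only the samples compared. Nrip1 averaged 37.6 ± 9.8 CPM (SD, n = 3) in MEFD3min, 97.6 ± 5.6 in MEFD3plu, 30.2 ± 1.58 CPM in MEFD5min and 28.9 ± 4.07 in MEFD5plu, and so rose at day 3 (log2 fold change 1.38, edgeR quasi-likelihood test, Benjamini-Hochberg adjusted p = 4.46e-07). It was not called at day 5 (-0.06, edgeR adjusted p = 0.767, and 0.05 without replicate 3 of MEFD5plu). Ncor1 rose by 0.59 at day 3 and measured -0.17 at day 5 (edgeR adjusted p = 0.156), a value called with only the samples compared (adjusted p = 0.0433) and with total counts alone (adjusted p = 0.0174). Gps2 fell by 0.41 at day 3 and measured 0.16 at day 5 (edgeR adjusted p = 0.2, and 0.00 with total counts alone). Tbl1x had log2 fold changes of -0.07 and -0.06, the latter -0.23 and called with total counts alone (edgeR adjusted p = 0.0244).

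Other receptors that pair with RXRs split in direction. Of 11 genes 8 were tested (Nr1h4, Nr1i2 and Nr1i3 were not), of which 4 rose and 4 fell at day 3 (median -0.05), and 2 rose and 4 fell at day 5 (median -0.33; 1 rose with total counts alone). Vdr, the vitamin D receptor, averaged 1.48 ± 0.443 CPM (SD, n = 3) in MEFD3min and 16 ± 1.2 in MEFD3plu, then 0.88 ± 0.387 in MEFD5min and 2.3 ± 0.254 in MEFD5plu (log2 fold changes 3.42 and 1.44, edgeR quasi-likelihood test, Benjamini-Hochberg adjusted p = 6.45e-10 and 0.000182). The retinoic acid receptor genes Rarg (-1.20 and -0.71) and Rarb (-1.34 and -1.44) fell, although 38.37% of Rarb exon bases overlap genes on the other strand. Rara instead rose by 0.40 at day 3 (edgeR adjusted p = 0.0217). That call was lost with only the samples compared (0.0936), and without replicates 1 (0.0798) or 4 (0.104) of MEFD3min or replicate 3 of MEFD3plu (0.113). At day 5 Rara lay between -0.16 and -0.05 with samples left out in turn and was not called. Thra, the thyroid hormone receptor alpha, rose by 0.48 and by 0.29, the latter not called with total counts alone (0.13, edgeR adjusted p = 0.203).

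Genes that supply or remove retinoids, ligands of RXRs and their partners, went in both directions. Of 12 genes 10 were tested (Aldh1a2 and Bco1 were not), with 4 higher and 4 lower at day 3 and 1 higher and 3 lower at day 5 (1 lower without replicate 3 of MEFD5plu). Cyp26a1 was among those that passed the filter through untreated samples alone. Of the 8 genes that passed it in treated and in untreated samples, 4 were higher and 3 lower at day 3 (median 0.38), and 1 was higher and 2 lower at day 5 (median -0.22). Where every sample had to have at least 10 counts, fewer genes were tested, with 0 higher and 2 lower at day 3 and 0 higher and 1 lower at day 5. Crabp1, which binds retinoic acid in the cytoplasm, averaged 1006 ± 217 CPM (SD, n = 3) in MEFD3min and 102 ± 7.67 in MEFD3plu, but 1174 ± 137 in MEFD5min and 1253 ± 141 in MEFD5plu. It fell by 3.30 at day 3 (edgeR quasi-likelihood test, Benjamini-Hochberg adjusted p = 6.78e-12) and was not called at day 5 (0.09, edgeR adjusted p = 0.594, and -0.07 with total counts alone). Aldh1a3, which makes retinoic acid, fell by 4.30 at day 3 and was not called at day 5 (-0.26, edgeR adjusted p = 0.395). The day 5 value depended on single samples, as Aldh1a3 was called lower without replicate 3 of MEFD5min (-0.55, edgeR adjusted p = 0.0132) and measured 0.07 without replicate 1 of MEFD5min. Aldh1a1 rose by 7.10 and by 5.44. Rdh10, a retinol dehydrogenase, fell by 0.80 at day 3 and by 0.28 at day 5 (edgeR adjusted p = 0.0347), the latter lost with only the samples compared (0.055), with no filter (0.0719), and without replicates 1 (0.0985) or 4 (0.0924) of MEFD5min or replicates 3 (0.178) or 4 (0.0542) of MEFD5plu. Cyp26a1, which breaks down retinoic acid, had 1 count in MEFD3plu and 323 in MEFD3min, a ratio of 0.00311 (95% exact counting interval 7.86e-05 to 0.0175), and its fitted log2 fold change of -7.87 was -9.76 without replicate 3 of MEFD3plu. At day 5 it fell by 1.48 (edgeR adjusted p = 0.0193), a call lost without replicate 3 of MEFD5min (0.0716) or replicates 1 (0.0669) or 3 (0.0793) of MEFD5plu. Cyp26b1 rose by 1.41 at day 3 and fell by 2.52 at day 5.

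Few genes of other ligands were measured. Of 6 oxysterol genes 4 were tested (Ch25h and Sult2b1 were not), with 1 higher and 2 lower at day 3 (median -0.58) and 1 higher and 1 lower at day 5 (median 0.12). The gene that was higher at day 3 was lost without replicate 4 of MEFD3min or replicate 3 of MEFD3plu and with only the samples compared, and at day 5 the count was 2 without replicate 1 and 0 without replicate 3 of MEFD5min. Cyp27a1, the sterol hydroxylase, fell by 1.24 at day 3 (edgeR quasi-likelihood test, Benjamini-Hochberg adjusted p = 0.00277) and measured 0.59 at day 5 (edgeR adjusted p = 0.0945), called higher without replicate 1 of MEFD5min (0.87, edgeR adjusted p = 0.0318). Of 7 prostaglandin and fatty acid ligand genes 4 were tested (Ptgds, Alox12 and Alox15 were not), with 1 higher and 1 lower at day 3 and 1 higher and 2 lower at day 5 (1 lower without replicate 1 of MEFD5min or replicates 3 or 4 of MEFD5plu, or with at least 10 counts in every sample). Ptgis, which makes prostacyclin, passed the filter through untreated samples alone, and the other 3 had 1 higher and 1 lower at each day (medians 0.22 and -0.09). Fabp5, a fatty acid carrier (5.48% of 50-base stretches also in other genes), rose by 4.16 and 2.80. Of the cyclooxygenase genes, Ptgs1 fell by 0.60 at day 3 and measured -0.09 at day 5 (edgeR adjusted p = 0.319, and -0.26 and called with total counts alone). Ptgs2 measured 0.22 at day 3 (edgeR adjusted p = 0.15) and fell by 1.27 at day 5, where it averaged 211 ± 19.9 CPM (SD, n = 3) in MEFD5min and 87.4 ± 6.58 in MEFD5plu.

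More of the known activators of Pparg transcription rose than fell with treatment. Of 13 genes 8 rose and 2 fell at day 3, and 8 rose and 3 fell at day 5. Klf15 and Zfp423, the latter named after its values were seen, passed the filter through treated samples alone. Of the other 11 genes, 6 rose and 2 fell at day 3 (median 0.75), and 6 rose and 3 fell at day 5 (median 0.95). Of all genes 28% rose and 28% fell at day 3 and 26.3% rose and 24.2% fell at day 5, with medians of 0.00 and 0.01. From MEFD3plu to MEFD5plu 11 fell and 2 were not called, where 29.2% of all genes fell. Of the 11 genes that passed in both kinds of sample 9 fell, with a median of -1.27 beside 0.05 for all such genes, while Pparg itself measured 0.22. Cebpd, an early factor of adipogenesis, averaged 71.9 ± 10.5 CPM (SD, n = 3) in MEFD3min, 363 ± 21.2 in MEFD3plu, 50.1 ± 5.77 CPM in MEFD5min and 150 ± 8.82 in MEFD5plu (log2 fold changes 2.34 and 1.59, edgeR quasi-likelihood test, Benjamini-Hochberg adjusted p = 1.1e-11 and 3.51e-09), though 15% of its exon bases overlap Spidr on the other strand. Klf15 had 522 counts in MEFD5plu against 2 in MEFD5min (ratio 263, 95% exact counting interval 72.4 to 2177). Klf5 rose by 2.69 at day 3 and fell by 1.94 at day 5. Ebf2 fell by 0.69 at day 3 and rose by 0.95 at day 5, and Zfp467 fell by 0.82 at day 3 and measured 0.06 at day 5 (edgeR adjusted p = 0.774, -0.11 with total counts alone, -0.05 without replicate 4 of MEFD5min and 0.00 without replicate 1 of MEFD5plu). Stat5b, of which 10.98% of 50-base stretches also occur in Stat5a, had log2 fold changes of -0.09 and -0.03 (0.06 without replicate 3 of MEFD3min and 0.01 without replicate 3 of MEFD5plu).

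Of 9 repressors of Pparg transcription 1 rose and 5 fell at day 3 (median -0.62), and 1 rose and 6 fell at day 5 (median -0.38). The 6 lower genes of day 5 became 2 without replicate 1 of MEFD5min or replicate 3 of MEFD5plu, and 3 without replicate 4 of MEFD5plu. The 1 higher gene was lost without replicate 1 of MEFD5min or any 1 replicate of MEFD5plu, in DESeq2 and with both other scalings. Wnt10b, a ligand that holds back adipogenesis, averaged 5.03 ± 0.777 CPM (SD, n = 3) in MEFD3min, 0.76 ± 0.0883 in MEFD3plu, 5.2 ± 0.436 CPM in MEFD5min and 2.25 ± 0.374 in MEFD5plu (log2 fold changes -2.73 and -1.20, edgeR quasi-likelihood test, Benjamini-Hochberg adjusted p = 1.27e-09 and 9.21e-06). Dlk1, the preadipocyte factor, fell by 1.68 at day 3 and by 0.47 at day 5 (edgeR adjusted p = 0.023), the latter lost without replicate 1 of MEFD5min (0.134) or replicates 3 (0.0802) or 4 (0.103) of MEFD5plu. Foxo1 rose by 1.80 at day 3 and measured -0.06 at day 5 (edgeR adjusted p = 0.837, and 0.05 without replicate 3 of MEFD5plu). Nr2f2 averaged 60 ± 13.6 CPM in MEFD3min and 61.4 ± 4.41 in MEFD3plu. At day 5 it averaged 55.3 ± 4.48 CPM in MEFD5min and 42.5 ± 2.89 in MEFD5plu and fell by 0.38 (edgeR adjusted p = 0.0228), a call lost without replicates 1 (0.0521) or 3 (0.0855) of MEFD5min or replicate 3 of MEFD5plu (0.0913). Of the tested list genes named above, exon bases also overlapped on the other strand for Acsl1 (9.91%), Foxo1 (7.78%), Nr2f2 (7.46%), Ebf2 (6.12%), Ptgis (6.08%), Thra (5.70%), Mlxipl (4.24%), Ptgs1 (3.81%) and Pprc1 (2.82%), and 50-base stretches occurred in other genes for Aldh1a1 (3.06%), Gps2 (2.75%), Plin2 (2.57%) and Acadm (2.04%).

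The genes whose pattern over the 15 samples was most like that of each receptor were taken by Pearson's r of log2 CPM among 9586 genes whose log2 CPM averaged 3 or more. The 15 samples share 5 conditions, so r is a description. Closest to Pparg were Tmem120a (r = 0.988), Grik2 (0.987), Mpc1 (0.986), Fabp4 (0.986) and Bckdhb (0.985). Mpc1, a subunit of the mitochondrial pyruvate carrier, averaged 16.8 CPM at day 0, then 12.6 CPM in untreated and 74.1 CPM in treated cells at day 3 and 12.9 and 76.8 CPM at day 5. The Pparg means were 17.9, 12.4, 76.6, 10 and 89.5 CPM. Closest to Rxra were Chst11 (0.993), Sh3pxd2a (0.983) and Timm29 (0.983), and Chst11 averaged 58.9, 53.9, 154, 34.8 and 39.7 CPM in the same order of conditions. Closest to Nr1h3 were 1600014C10Rik, Acad11 and Aldh6a1 (0.991 each).

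Ppard was most like Ddx42 (r = 0.969), Nfkb2 (0.967) and Kdm6b (0.958), and Rxrb most like Slc2a8 (0.958), Creld1 (0.955) and Foxo4 (0.947). For Nr1h2 these were Rnf167 (0.96), Abtb1 (0.944) and Ubtd2 (0.941). For the scarce genes, Ppara had Tmcc3 (0.955), Pex16 (0.951), a peroxisome assembly factor, and Sh3glb2 (0.948), and Rxrg had Dram1 (0.923), Isoc2a (0.918) and Clca3a1 (0.914). Clca3a1 averaged 53.7 CPM in MEFD5plu and at most 7.84 CPM in the other conditions. Most of these names changed when Spearman's rho was used or when only days 3 and 5 were kept.

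Start regions of the 8 genes were read from RefSeq (GRCm38.p6), which gave 14 windows from 250 bases before to 50 bases after a transcript start. They were searched on both strands for AGGTCA, the hexamer that these receptors bind and which reads TGACCT on the other strand. They were also searched for its direct repeats, which contain the hexamer, spaced by 1 base as AGGTCANAGGTCA (known for PPAR with RXR) and by 4 bases as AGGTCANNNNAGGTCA (known for LXR with RXR). Further motifs were CCAAT, on the other strand written ATTGG, and the E-box CACGTG, which reads the same on both strands. Of all 32851 such windows 16.3% held the hexamer, 0.0396% the repeat spaced by 1, 0.0152% the repeat spaced by 4, 37.4% CCAAT and 7.15% the E-box. Neither repeat nor the E-box was in any of the 14 windows. With windows numbered within each gene, the hexamer was in windows 1 and 2 of Pparg, 2 of Rxra and 2 of Rxrg, and in no other. CCAAT was in windows 2 and 3 of Pparg, 1 of Ppard and 1 of Rxrg, and in no other. The shares of all windows are per window, not per gene. A match is a description of letters, and its absence says nothing of binding elsewhere.

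The 250 bases upstream of a start are shown for 3 genes that rose in treated cells, Pparg, Rxra and Rxrg, from windows whose upstream bases lie in 0 annotated exon bases. All are on the plus strand, at chr6:115421816-115422065 for Pparg, chr2:27709042-27709291 for Rxra and chr1:167618015-167618264 for Rxrg, and capitals mark CCAAT in Pparg and the hexamer, on either strand, in the other 2. The CCAAT matches of Pparg start at bases -144 and -22 from the start. The Rxra hexamers start at -87 and -48, and that of Rxrg at -88. Rxra and Rxrg each had another window with upstream bases in 0 annotated exon bases, which held no hexamer and is not shown.
Pparg: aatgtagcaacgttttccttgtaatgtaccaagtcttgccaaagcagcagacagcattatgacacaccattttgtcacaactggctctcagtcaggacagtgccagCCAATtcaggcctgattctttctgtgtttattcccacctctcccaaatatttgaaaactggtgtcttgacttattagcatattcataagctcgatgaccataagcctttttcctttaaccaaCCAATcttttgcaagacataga
Rxra: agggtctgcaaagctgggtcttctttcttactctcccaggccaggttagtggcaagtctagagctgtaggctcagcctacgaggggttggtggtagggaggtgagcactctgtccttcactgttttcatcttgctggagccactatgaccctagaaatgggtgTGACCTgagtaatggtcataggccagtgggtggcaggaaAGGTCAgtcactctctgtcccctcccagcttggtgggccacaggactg
Rxrg: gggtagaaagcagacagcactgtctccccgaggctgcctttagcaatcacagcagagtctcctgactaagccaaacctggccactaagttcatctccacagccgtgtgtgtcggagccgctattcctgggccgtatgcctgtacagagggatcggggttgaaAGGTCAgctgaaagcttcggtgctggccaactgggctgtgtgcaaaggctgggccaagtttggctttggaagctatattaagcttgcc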

How the data were processed

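RNA-Seq of 15 MEF samples, 3 per condition, was used. The authors deposited counts of reads per Ensembl gene, without normalization. Per the submitters' notes, reads were aligned to GRCm38 with TopHat2 2.1.0, counted with HTSeq and tested with DESeq2. The labels and the study's methods name different library kits, and the strand setting of the counting is not given in the sources used here, so reads of overlapping genes on opposite strands could not be told apart. The qPCR and staining of the study were not analysed here.

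Gene names came from GENCODE M21, where 46005 had a name and 598 had none. No line of the count tables lacked a gene. Low counts were filtered with filterByExpr of edgeR 4.0.16 (R 4.3.3), which left 15997 genes, and TMM gave the scaling. The functions glmQLFit and glmQLFTest were run on all 15 samples with a mean per condition and no covariates, and Benjamini-Hochberg adjusted p-values under 0.05 were called. CPM carry the TMM scaling, and CPM per kb divide by the union of annotated exons. Family shares were compared by exact permutation in scipy 1.17.1, and ratios of low counts carry exact conditional binomial intervals at 95%. A floor of 3 counts over a group was used for genes at 0. The fitting steps were tested on simulated data. Python 3.11.15, numpy 2.4.6, pandas 2.3.3 and matplotlib 3.10.9 were also used.

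The genes to name were all 8 receptor genes, and from each list its 3 most abundant tested genes, its most increased and most decreased called gene without overlap at days 3 and 5, and Fabp4, Cd36, Pdk4, Cpt1a, Abca1, Abcg1, Srebf1, Mylip, Ppargc1a, Ncor1 and Nrip1. Some genes that this rule or the lists give are not reported here. For likeness, they were the 5 genes most like Pparg and the 3 most like each other receptor gene (log2 CPM with a prior count of 2). The members and lists were chosen with earlier results of these data known. Samples of a condition were compared, and none were identical. Chi-squared per degree of freedom between 2 samples was highest in MEFD3min, at 79.7 for replicates 3 and 4, 32.8 for 1 and 3 and 19.1 for 1 and 4. In the other conditions it was at most 21.1. The labels do not say what the sample numbers stand for. Deviations from the condition means correlated between same-numbered samples of MEFD3min and MEFD3plu with r of 0.143, 0.228 and 0.36 for numbers 1, 3 and 4 (mean -0.121 for other numbers), so for this comparison the fit with the number as a block is given where it changed a call. Deviations cancel within a condition, so the value for other numbers follows largely from the same-number values and is no separate contrast. Alternatives were DESeq2 1.42.0, DESeq2's size factors, total counts alone, no filter, at least 10 counts in every sample, only the samples compared, a threshold of 0.01 on adjusted p, changes of 2-fold or more, a block for the replicate number, and leaving out every sample in turn. For the counts of list genes, these alternatives were chosen after seeing the data, as were the counts and medians over genes that pass the filter in at least 3 treated and at least 3 untreated samples.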

Additional observations from a re-analysis of the deposited data

Results flagged for a closer look

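The difference between treated and untreated cells itself differed between days 3 and 5 for 4 receptor genes in the edgeR interaction test, given as the log2 fold change at day 3 minus that at day 5. It was -0.54 for Pparg, 0.73 for Ppard, 1.18 for Rxra and -2.72 for Nr1h3. Of all genes tested 48.5% passed this test, so that 4 of 8 receptor genes is close to that background. The Ppard value depended on single libraries. Groups of 3 samples were not tested for samples far from the others.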

How the results depend on the processing

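Receptor genes gave 26 called and 22 uncalled log2 fold changes. Over the alternatives in which a gene was tested, the called ones kept direction and call in 567 values and lost the call in 19, with 0 reversed. The uncalled ones stayed uncalled in 447, were called in 27 and reversed in 19. Here and for list genes, cases where a gene was not tested are left out. For receptor genes these were Ppara, Rxrg and Nr1h3 with at least 10 counts required in every sample. They were also Ppara and Rxrg in some comparisons with only the samples compared. Many values come from leaving out a sample that was not in the comparison. For list genes at days 3 and 5, 97 called results gave 2139 values with the same call and 62 without it, and 29 uncalled ones gave 598 the same, 31 called and 34 reversed. Other recomputed values numbered 261 called results (5721 the same, 248 lost, 2 reversed) and 153 uncalled ones (3150, 137 called, 187 reversed). Of the alternatives for list counts, chosen after seeing the data, 2880 values over 132 counts stayed within 1.5 times and 156 did not, 79 of them without a sample, 26 under the stricter filter and 7 with genes that pass the filter in treated and in untreated samples, both of which take in fewer genes. The cause of the others was not tested.

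That filter (10 counts or more in every sample) left 2 receptor genes called for MEFD5plu/MEFD5min (5 otherwise), since Ppara, Rxrg and Nr1h3 were not tested. Without Ppara and Rxrg, which passed the main filter through treated samples alone, 3 were called there. A change of at least 2-fold left 2 for the interaction, 1 for MEFD3min/MEFD0, 1 for MEFD5min/MEFD3min and 2 for MEFD5plu/MEFD3plu. Of the most alike genes, Spearman's rho kept 0 for Pparg, 0 for Ppara, 1 for Rxra, 1 for Rxrb, 0 for Rxrg, 0 for Nr1h2 and 0 for Nr1h3, and days 3 and 5 alone kept 1 for Pparg, 0 for Ppard, 1 for Rxra, 0 for Rxrb, 0 for Rxrg, 0 for Nr1h2 and 1 for Nr1h3.

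Of the values of receptor genes in all comparisons, and of list genes chosen by the naming rule at days 3 and 5, those that reversed belonged to uncalled results and were as follows on the log2 scale. Some of these results are given here alone. For MEFD5plu/MEFD5min, DESeq2, its size factors and total counts gave -0.04, -0.04 and -0.16 for Rxrb, -0.04, -0.04 and -0.16 for Fasn, and -0.02, -0.03 and -0.14 for Smpdl3a. Total counts alone gave -0.07 for Crabp1, 0.00 for Gps2 and -0.11 for Zfp467 there, 0.02 for Ncoa2 in MEFD3plu/MEFD3min, -0.04 for Rxrg in MEFD3min/MEFD0 and 0.09 for Nr1h2 in MEFD5min/MEFD3min. Leaving out a sample gave, from lowest to highest, for MEFD5plu/MEFD3plu -0.48 to 0.66 for Ppara; for MEFD3min/MEFD0 -0.47 to 0.56 for Rxrg; for MEFD5min/MEFD3min -0.41 to 0.12 for Ppard and -0.04 to 0.03 for Nr1h2. For MEFD3plu/MEFD3min it gave -0.02 to 0.09 for Nr1h2, -0.05 to 0.29 for Ddit3, -0.09 to 0.15 for Mylip, -0.14 to 0.20 for Ncoa2, -0.08 to 0.23 for Nr2f2, -0.12 to 0.35 for Pprc1 and -0.21 to 0.06 for Stat5b. For MEFD5plu/MEFD5min it gave -0.06 to 0.04 for Rxrb, -0.06 to 0.02 for Nr1h2, -0.55 to 0.07 for Aldh1a3, -0.16 to 0.13 for Fasn, -0.13 to 0.05 for Foxo1, -0.14 to 0.05 for Nrip1, -0.27 to 0.32 for Smpdl3a, -0.11 to 0.01 for Stat5b and -0.05 to 0.13 for Zfp467.

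The replicate block, using the numbers 1, 3 and 4, called 6 receptor genes for MEFD3plu/MEFD3min (4 without it), 5 for MEFD5plu/MEFD5min (5), 4 for the interaction (4), 5 for MEFD3min/MEFD0 (5), 3 for MEFD5min/MEFD3min (3) and 6 for MEFD5plu/MEFD3plu (5). Of all 15997 genes tested it called, in the same order, 9452 (8967 without it), 8607 (8080), 8305 (7754), 10010 (9602), 7420 (6845) and 10415 (10071). It gave 0.03 for Ppara in MEFD5plu/MEFD3plu and 0.00 for Ncoa2 in MEFD3plu/MEFD3min. Of the receptor genes, and of the list genes named by rule at days 3 and 5, it added Ppard (0.43), Rxrb (0.22) and Ep300 (0.45) in MEFD3plu/MEFD3min, Med1 (-0.22), Ncoa2 (-0.30) and Srebf1 (0.32, edgeR adjusted p = 0.0117) in MEFD5plu/MEFD5min and Pparg (0.23, edgeR adjusted p = 0.0296) in MEFD5plu/MEFD3plu, and it took away no call. Over all conditions, samples with the same number had a mean correlation of 0.0572, beside -0.0286 for other numbers, and 10 of 30 pairs were above 0.1. Here too the value for other numbers follows largely from the same-number value. Other than MEFD3min with MEFD3plu, each pair of conditions had a correlation under 0.1 for some number. Of these pairs, only between MEFD0 and MEFD3plu did every sample correlate best with its own number. A value under 0.1 does not show whether same-numbered samples were paired, which the labels do not say. Ppara and Rxrg, at a few counts in most samples, are limited by depth.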
